A study of Mus musculus with 2 samples.

Results

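The genes described here are the Fos, Jun and ATF3-related genes of the AP-1 transcription factor in hematopoietic stem cells (HSCs), the bone marrow cells that sustain all blood lineages. They were matched by gene symbol from a list of names, which was drawn up with earlier results of these data known, and comprised the Fos family (*Fos*, *Fosb*, *Fosl1* and *Fosl2*), the Jun family (*Jun*, *Junb* and *Jund*) and 3 further factors of the same structural class (*Atf3*, *Batf* and *Maff*). All 10 were found among the 24421 gene symbols with counts.

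AP-1 is a dimer of basic leucine zipper (bZIP) proteins. Jun proteins pair with each other, with Fos proteins or with ATF proteins, whereas Fos proteins bind DNA only with a partner, and the dimers recognise the AP-1 site or the related cyclic AMP response element (CRE). Many of these genes are immediate-early genes, whose transcripts are short-lived and rise within minutes of mitogen, cytokine or stress signals through MAP kinases, and cell isolation is itself known to raise them.

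RNA was sequenced from 1 library labelled WT (genotype Ezh2 +/+ CreERT+/-) and 1 library labelled Ezh2 KO (Ezh2 Δ/Δ CreERT+/-), both on the C57BL/6 strain. *Ezh2* encodes a histone methyltransferase of Polycomb repressive complex 2. In both groups, CD45.2 marrow carrying Cre-ERT, a recombinase switched on by tamoxifen, was placed in lethally irradiated CD45.1 hosts, and 100 µl of tamoxifen at 10 mg/ml was given on each of 5 days. The cells sorted 1 month later were lineage-negative, positive for c-kit, Sca-1 and CD150, and negative for CD48, CD34 and Flt3. The labels do not give the age or sex of the mice, the number of animals behind a library, the promoter of the Cre transgene, or whether host cells were gated out by CD45. With 1 library per group no difference below has a replicate check. Every interval covers the counting error of reads only, because 1 library per group gives no spread between libraries. Amplified reads that carry no molecular identifier cannot be counted as separate molecules, so the intervals may be too narrow even for the sampling of molecules.

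Gene counts summed to 5763118 in WT and to 4157280 under the Ezh2 KO label. The smallest level each depth could show, set at 3 counts, was 0.521 and 0.722 CPM (counts scaled to a common total). *Ezh2* was not lower under the knockout label, with 166 and 129 counts (142.5 and 150.3 after scaling by library size factors, a log2 ratio of 0.08 with a 95% interval from -0.27 to 0.42). The counts are summed over the whole gene, so reads from exons outside a deleted stretch are included, and the second library is named by its label throughout. The libraries also differed in sex-linked genes, which were read after their values were seen, with 801 and 4 counts of *Xist* and 0 and 275 counts of *Ddx3y*. Of the 12 HSC markers examined none was at 0 and none was called in either direction. Among them, *Kit*, which encodes the stem cell factor receptor, stood at 5202.1 and 5120.4 normalised counts. The median log2 ratio of the 12 was -0.10, with 4 above 0 and 8 below. The lowest were *Ctnnal1* (-0.70), *Slamf1* (-0.62), which encodes the sort marker CD150, and *Fgd5* (-0.59), each with an interval wholly below 0. The highest was *Ly6a* (0.32), with an interval wholly above 0.

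To show the regulatory DNA of the 3 members that stood highest in WT and of one whose levels were alike in both libraries, the bases upstream of the transcription start are printed 5′ to 3′ from RefSeq (build GRCm38.p6). They belong to *Fos* at chr12:85473640-85473889 (+ strand), *Jun* at chr4:95052223-95052472 (- strand), *Junb* at chr8:84978749-84978998 (- strand) and *Batf* at chr12:85686470-85686668 (+ strand). Capitals mark the letters TGACGT (the core of the CRE), TGACGTCA (a full CRE, which contains that core), TGANTCA (the AP-1 site) or TGACATCA (a CRE variant), searched on both strands.
Fos: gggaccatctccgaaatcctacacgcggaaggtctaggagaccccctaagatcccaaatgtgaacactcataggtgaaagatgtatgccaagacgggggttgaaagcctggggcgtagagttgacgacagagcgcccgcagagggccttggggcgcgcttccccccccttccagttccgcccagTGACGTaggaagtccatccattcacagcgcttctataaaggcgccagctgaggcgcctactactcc
Jun: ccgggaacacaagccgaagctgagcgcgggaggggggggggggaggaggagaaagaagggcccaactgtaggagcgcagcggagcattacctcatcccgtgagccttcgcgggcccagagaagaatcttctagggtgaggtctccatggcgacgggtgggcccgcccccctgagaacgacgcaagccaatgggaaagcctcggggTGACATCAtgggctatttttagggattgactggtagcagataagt
Junb: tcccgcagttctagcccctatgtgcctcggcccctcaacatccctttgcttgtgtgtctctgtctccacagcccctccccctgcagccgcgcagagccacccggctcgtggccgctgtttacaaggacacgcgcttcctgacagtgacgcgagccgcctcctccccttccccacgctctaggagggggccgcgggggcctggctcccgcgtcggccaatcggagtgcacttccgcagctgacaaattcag
Batf: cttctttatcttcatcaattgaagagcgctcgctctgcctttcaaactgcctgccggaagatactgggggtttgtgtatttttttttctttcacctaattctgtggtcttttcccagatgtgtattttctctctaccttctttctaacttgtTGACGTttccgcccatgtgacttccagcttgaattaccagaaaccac

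The letters TGACGT lay in the *Fos* sequence 66 bases before the RefSeq start and in *Batf* 98 bases before its RefSeq start. The *Batf* sequence shown holds 199 bases and ends at the start in the gene annotation used for lengths, which lies upstream of its RefSeq start. The letters therefore lie nearer to the end of the sequence shown than to that RefSeq start. *Jun* carried TGACATCA 45 bases before its start, a form of the CRE known from this promoter as a site bound by Jun and ATF2 dimers and added to the search after the sequence was seen. *Junb* held none of these letters in the stretch shown. The search covered windows from 250 bases before to 50 after each start, of which 11 belonged to 9 of the 10 members, with 3 for *Maff*. A window for *Fosl1* was not used here. TGACGT was found in 4 of the 11 windows (*Fos*, *Atf3*, *Batf* and 1 window of *Maff*), against 7.51% of 32851 windows over all genes. The window of *Maff* held the full TGACGTCA, 1 of 11 against 1.79%. TGACATCA was found in 2 of the 11, against 3.62%, and TGANTCA in 0 of the 11, against 7.81%. The CArG box, to which serum response factor binds, was in 0 of the 11 and in 1.63% of all windows. A box more than 250 bases before a start lies outside these windows, so its absence from the promoters cannot be read from this. The letters TATAAA lay 33 bases before the start of *Fos* and CCAAT 65 bases before that of *Jun*. TATAAA was in 2 of the 11 windows (13.6% of all) and CCAAT in 3 (37.4%). The RefSeq window of *Jund* ended upstream of the start in the gene annotation used for lengths, so it may not hold that promoter. A match is a description of letters and not a binding site.

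The 10 genes together were less abundant in the library labelled Ezh2 KO. They held 37291 counts in WT, 0.647% of all gene counts (95% exact interval 0.641 to 0.654%), and 13237 counts in the other library, 0.318% (0.313 to 0.324%). A ratio was formed for each gene as log2 of the normalised count plus 1, Ezh2 KO label over WT, and a gene was called when it differed at least 2-fold and the exact 95% counting interval of the ratio excluded no difference. Only genes with a mean of at least 1 CPM were tested. A call compares these libraries and not the conditions, and in sorted bulk RNA fewer cells expressing a gene and less RNA per cell cannot be told apart. Of the members, 9 passed the filter. The 3 called lower were *Fos*, *Fosb* and *Fosl2*, and the background for a lower call was 3.27% of 12588 genes. None of the members was called higher, against 4.09% of all genes. Of the 9 ratios 8 were below 0, and 6 had an interval wholly below 0 (*Fos*, *Fosb*, *Fosl2*, *Jun*, *Junb* and *Jund*), against 20.8% of all genes. That share covers tested genes of every level, and counting intervals narrow as counts rise. The share among genes as abundant as *Fos* or the Jun genes was not computed. The median of the 9 ratios was -0.76, and that of all genes tested was 0.00.

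**Figure D1:**
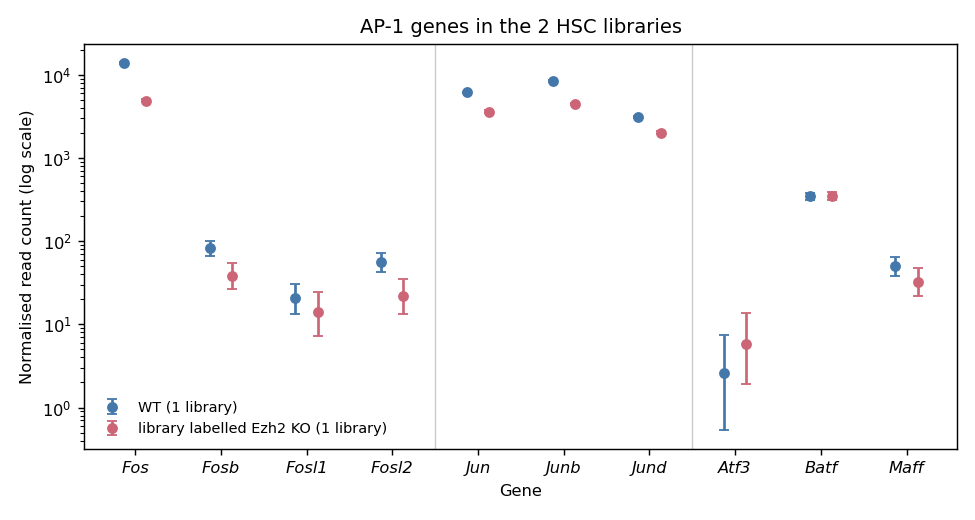
Normalised read count (log scale) of each of the 10 AP-1 genes in the WT library and the library labelled Ezh2 KO, with bars for exact 95% counting intervals and vertical lines between the Fos family, the Jun family and the other 3 genes. *Fos*, *Junb*, *Jun* and *Jund* lie highest in both libraries and lower under the Ezh2 KO label, from 2010.2 to 4892 there and from 3105.6 to 13853 in WT, whereas *Batf* lies at 346.7 and 350.8.

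Within the Fos family all 4 ratios were below 0, with a median of -1.19, and 3 were called lower. *Fos*, the prototype partner of Jun (chr12:85473890-85477273, + strand, 4 exons), had 16143 counts in WT against 4198 under the Ezh2 KO label. After scaling these were 13853 and 4892 normalised counts, 2.83-fold higher in WT, a log2 ratio of -1.50 (95% counting interval -1.55 to -1.45). The intervals of its levels lay far apart. Among the 950 genes whose mean reached 1000 normalised counts, *Fos* had the lowest ratio of all, and 4 of those genes (0.421%) were called lower. It was the only one called of the 4 members in that range.

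*Fosb* (chr7:19302696-19310051, - strand, 4 exons), which encodes a Fos protein best known from neuronal activity, had 96 and 33 counts, or 82.4 and 38.5 normalised counts. Its log2 ratio was -1.08 (-1.72 to -0.51). *Fosl2* (chr5:32135801-32157842, + strand, 4 exons), which encodes the Fos-related antigen Fra-2, had 65 and 19 counts, or 55.8 and 22.1 normalised counts. Its log2 ratio was -1.29 (-2.15 to -0.58). Both were called lower from fewer than 100 counts in a library, and the intervals reached from well under to well over a 2-fold difference. Among the 1259 genes with means from 38.6 to 75.5 normalised counts, which include both, the robust SD of the log2 ratios was 0.60. Neither ratio reached 3 such SDs below 0. Against genes of like level, *Fosb* and *Fosl2* thus stood out less than the uncalled *Jun*, *Junb* and *Jund* described below. *Fosl1* (chr19:5447547-5455946, + strand, 4 exons), which encodes Fra-1, had 24 and 12 counts, and its log2 ratio of -0.53 had an interval from -1.69 to 0.50. A difference in *Fosl1* was not detectable at this depth. Its exons overlap those of *Ccdc85b* on the other strand, which had 229 and 287 counts. Whether the counting used strand is not given in the sources used here, so reads of these genes may be mixed.

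The Jun family was expressed at high levels in both libraries, and its 3 ratios lay between those of *Fos* and 0. *Junb* (chr8:84974484-84978718, - strand), which encodes a Jun protein known to restrain stem cell proliferation and myeloid expansion, had 9736 and 3818 counts. These were 8354.9 and 4449.1 normalised counts, 1.88-fold higher in WT, with a log2 ratio of -0.91 (-0.96 to -0.85). *Jun*, the founding member of the family (chr4:95049034-95052222, - strand), had 7143 and 3098 counts. These were 6129.7 and 3610.1 normalised counts, 1.70-fold higher in WT, with a log2 ratio of -0.76 (-0.83 to -0.70). *Jund* (chr8:70698949-70700616, + strand), the member usually described as the most constant across conditions, had 3619 and 1725 counts. These were 3105.6 and 2010.2 normalised counts, 1.54-fold higher in WT, with a log2 ratio of -0.63 (-0.71 to -0.54).

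None of the Jun genes reached the 2-fold threshold, although each interval excluded no difference and the intervals of the levels did not overlap between libraries. Counted from the lowest, *Junb*, *Jun* and *Jund* ranked at 6, 10 and 14 in ratio among the 950 abundant genes. The robust SD of the log2 ratios was 0.19 among the tenth of genes with the highest means, so each of these ratios exceeded 3 such SDs below 0. *Junb* overlaps exons of *Prdx2* on the other strand, and *Prdx2* had 1612 and 1316 counts with a log2 ratio of 0.15. The annotation places the antisense transcripts *Junos* at *Jun* and *Gm11175* at *Jund*, neither of which had counts in the files.

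*Batf*, *Maff* and *Atf3* gave no calls. *Batf* (chr12:85686669-85709087, + strand, 3 exons), which encodes a small bZIP factor that pairs with Jun proteins and lacks an activation domain, had 404 and 301 counts. After scaling it stood at 346.7 and 350.8 normalised counts, a log2 ratio of 0.02 (-0.20 to 0.24), so the counting interval held no difference as large as 1.5-fold in either direction. *Maff* (chr15:79346621-79359076, + strand, 3 exons), a small Maf protein, had 58 and 28 counts and a log2 ratio of -0.59 (-1.31 to 0.07). *Atf3* (chr1:191170296-191218039, - strand, 4 exons), a stress-induced factor, had 3 and 5 counts and did not pass the filter. The ratio of its normalised counts, 2.26, had a log2 interval from -1.18 to 3.87, so neither direction could be read. The RNA *Gm24748* is annotated within *Atf3* on the other strand.

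*Fos* and *Batf* lie near each other on chromosome 12, with *Jdp2*, which encodes a repressor that dimerises with Jun, between them. *Jdp2* begins 125 kb from the start of *Fos* and *Batf* 213 kb from it. *Jdp2*, named for its position, had 194 and 142 counts and a log2 ratio of -0.01 (-0.33 to 0.31). Of these neighbours, *Fos* alone was called, and the ratio of *Fos* to *Batf* counts was 40.0 (36.2 to 44.2) in WT and 13.9 (12.4 to 15.7) in the other library. That ratio does not depend on scaling between libraries, and its log2 difference was -1.52 (-1.74 to -1.29).

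**Figure D2:**
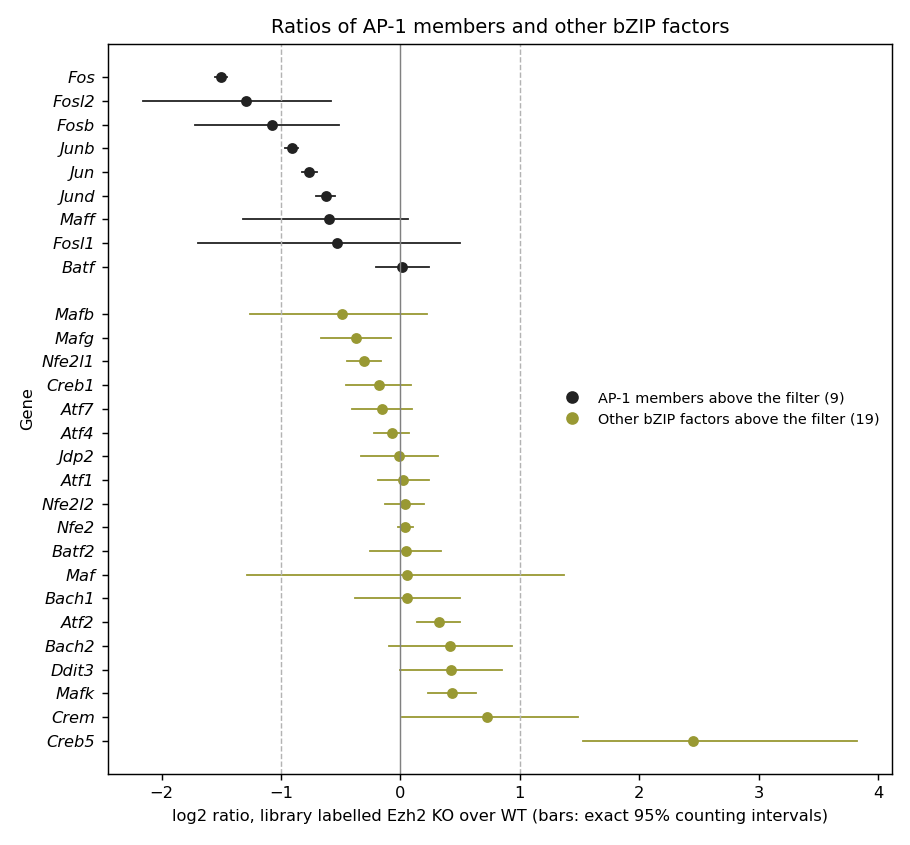
Log2 ratio of the library labelled Ezh2 KO over WT for the 9 AP-1 members above the filter (black) and 19 other bZIP genes (olive), with exact 95% counting intervals and dashed lines at a 2-fold difference. Members run from -1.50 for *Fos* to 0.02 for *Batf*, while the other bZIP genes centre near 0 with *Creb5* alone beyond 2-fold.

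Levels of different genes were compared as normalised counts per kb of exon. In WT, *Fos* stood first of the members at 5889.9 per kb and ranked at 7 of 23334 genes. *Junb* followed at 3631.0 (rank 28), then *Jun* at 1922.1 (rank 75) and *Jund* at 1861.9 (rank 79). *Batf* was far lower, at 246.6 per kb.

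The remaining 5 members in WT were *Maff* at 19.2, *Fosb* at 13.2, *Fosl1* at 10.1, *Fosl2* at 5.76 and *Atf3* at 1.20 per kb. *Jun* and *Jund* did not differ beyond counting error in WT, with a ratio of *Jund* to *Jun* per kb of 0.969 (0.930 to 1.01). The intervals of *Maff* and *Fosb*, of *Fosb* and *Fosl1*, and of *Fosl1* and *Fosl2* also overlapped. The 4 abundant members therefore stood apart from *Batf*, and *Batf* from the low group, with intervals that did not overlap.

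In the library labelled Ezh2 KO, *Fos* stood at 2079.9 per kb (rank 69) and *Junb* at 1933.6 (rank 74), with intervals of 2017.5 to 2143.8 and 1872.7 to 1995.9. *Jund* followed at 1205.1 (rank 144) and *Jun* at 1132.1 (rank 162). The gap of *Fos* over *Junb*, clear in WT, was thus narrow here, and with the length of the longest transcript in place of all exons *Junb* stood first. *Batf* was at 249.5 per kb, *Maff* at 12.6, *Fosl1* at 6.88, *Fosb* at 6.16, *Atf3* at 2.70 and *Fosl2* at 2.29. Intervals of neighbours overlapped among *Maff*, *Fosl1*, *Fosb*, *Atf3* and *Fosl2*.

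The make-up of the AP-1 pool therefore differed between the libraries. By summed level per kb, the Fos family made up 43.5% of the 10 genes in WT against 31.6% under the Ezh2 KO label, and the Jun family 54.5% and 64.4%. By raw counts, the share of the Fos family was 43.8% (95% exact interval 43.3 to 44.3%) and 32.2% (31.4 to 33.0%). *Fos* accounted for nearly the whole of its family, at 43.3% and 31.4% per kb. *Junb* made up 26.7% and 29.2%, *Jun* 14.1% and 17.1%, *Jund* 13.7% and 18.2%, and *Batf* 1.81% and 3.76%. By raw counts, the share of *Batf* was 1.08% and 2.27%.

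Ratios of counts within a library gave the same picture with no scaling. *Fos* stood to *Jun* at 2.26 (2.20 to 2.32) in WT against 1.36 (1.29 to 1.42) in the other library, with a log2 difference of -0.74 (-0.82 to -0.66). *Fos* to *Junb* was 1.66 and 1.10, a difference of -0.59 (-0.67 to -0.52), and *Fos* to *Jund* 4.46 and 2.43, a difference of -0.87 (-0.97 to -0.78). The difference in *Fos* thus exceeded those in the 3 Jun genes by more than counting error.

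Within the Jun family the shifts were small. *Junb* to *Jun* was 1.36 in WT against 1.23 in the other library, with a log2 difference of -0.15 (-0.23 to -0.06). *Jund* to *Jun* was 0.507 and 0.557, a difference of 0.14 (0.03 to 0.24). The ratios of *Fos* to *Fosb* and of *Fos* to *Fosl2* differed between libraries by -0.40 (-0.99 to 0.22) and -0.17 (-0.93 to 0.65), so at this depth *Fos* could not be told from the 2 low genes of its family that were also called.

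**Figure D3:**
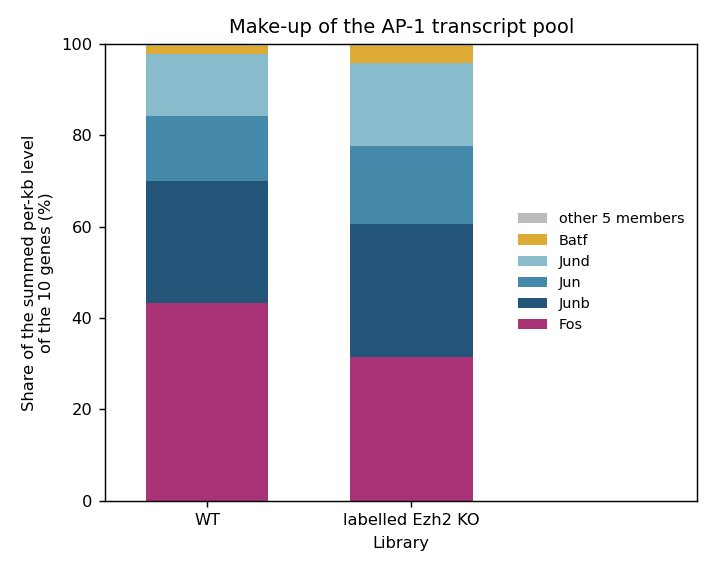
Share (%) of each member in the summed level per kb of the 10 AP-1 genes in the WT library and the library labelled Ezh2 KO, stacked to 100%. The share of *Fos* is 43.3% in WT and 31.4% in the other library, and the shares of *Junb*, *Jun*, *Jund* and *Batf* are each larger in the latter.

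Gene structure and transcript sequence were also compared with those of other genes. The longest annotated transcripts of *Jun*, *Junb* and *Jund* have 1 exon, as do those of 5.22% of 11582 tested protein-coding genes, while the other 7 members have 3 or 4. Over the 10 members the median number of exons in the longest transcript was 3.5 against 8, and the median span 7.88 against 24.0 kb. The letters TATTTAT, the core of the AU-rich element to which mRNA decay factors bind, occurred in the 3′ untranslated region of 8 of the 10 members (all but *Junb* and *Batf*) and in 29.7% of 11607 tested genes. *Fos* and *Maff* held 2 copies and *Fosl2* held 3. At least 2 copies were thus in 3 of the 10 members, against 10.3% of tested genes. The shorter ATTTA was in 9 of the 10, all but *Batf*, against 69.2% of tested genes. *Fosl2* held 8 of these and *Fos*, *Jun* and *Maff* 4 each. The median length of this region was 1000.5 bases among the members and 1135 bases among tested genes. That of *Fosl2* was 4653 bases, and a longer region has more room for such letters.

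Other bZIP genes that can pair with AP-1 or bind its sites were compared as a list of 21, of which 19 passed the filter. For this list and those below, the background over all genes tested was 4.09% called higher and 3.27% called lower. *Creb5*, a CRE-binding factor, was called higher, with 9 and 40 counts and a log2 ratio of 2.45, and none was called lower. *Creb5* did not pass a filter of at least 10 CPM, which left 0 calls in the list. The median ratio was 0.04, with 12 above and 7 below 0. The most abundant were *Nfe2*, a factor of erythroid and megakaryocytic genes, at 4047.0 and 4161.3 normalised counts (log2 0.04), and *Nfe2l1* at 962.8 and 779.6 (log2 -0.30). Neither was called.

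Genes of the MAP kinase cascades upstream of AP-1 had a median of -0.03 over 23 of 24 tested. *Mapk13*, a p38 kinase, was called higher with 14 and 45 counts (log2 2.04), and *Mapk11*, another p38 kinase, was called lower with 54 and 16 counts (log2 -1.27). Neither passed the filter of 10 CPM, at which the list had 0 calls. The most abundant uncalled genes were *Rps6ka1*, a kinase activated by ERK, at 2220.0 and 2209.4 normalised counts, and *Mapk14*, the main p38 kinase, at 1914.5 and 1872.7. Serum response factor and its cofactors, which drive *Fos* transcription, gave 0 calls among 6 genes. The median was 0.32, with 4 ratios above 0 and 2 below. The most abundant, *Elk3* and *Mkl1*, had log2 ratios of 0.55 and 0.39, with intervals wholly above 0. Those below were *Srf* itself (-0.32, interval -0.60 to -0.05) and *Elk1* (-0.30, interval -0.77 to 0.15). Of 18 genes listed as AP-1 targets 12 were tested. *Hmox1*, which encodes a heme-degrading enzyme, was called higher (163 and 252 counts, log2 1.06), none was called lower, and the median was 0.29. *Vim* and *Cd44*, the most abundant, had log2 ratios of 0.14 and -0.02.

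Immediate-early genes outside AP-1 had a median of -0.72 over 21 of 24 tested. Of these, 7 were called lower and none higher, against 3.27% and 4.09% of all genes tested. Ratios below 0 numbered 18 in this list and 6344 among all 12588 genes tested. Among the called genes, *Egr1*, a zinc finger factor, stood at 8942.7 and 3744.1 normalised counts (log2 -1.26). *Nr4a1*, an orphan nuclear receptor, stood at 1416.8 and 502.2 (log2 -1.49), *Btg2*, an antiproliferative gene, at 739.7 and 238.9 (log2 -1.63), and *Socs3*, a feedback inhibitor of cytokine signalling, at 310.6 and 142.2 (log2 -1.12). The most abundant that were not called were *Zfp36*, whose protein binds AU-rich elements, at 11754.8 and 6497.8 (log2 -0.86), and *Ier2*, at 7810.8 and 5071.4 (log2 -0.62).

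**Figure D4:**
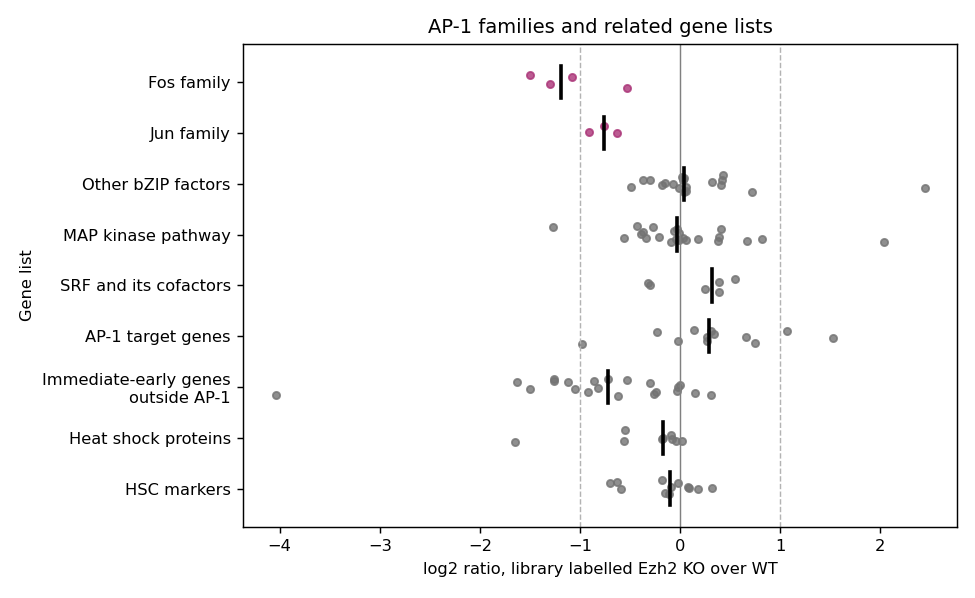
Log2 ratio of the library labelled Ezh2 KO over WT for each tested gene of the Fos and Jun families (red) and of 7 related lists (grey), with black bars at the medians and dashed lines at a 2-fold difference. The medians are -1.19 and -0.76 for the Fos and Jun families and -0.72 for the other immediate-early genes, whereas the other bZIP and MAP kinase lists have medians of 0.04 and -0.03.

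Among genes whose mean reached 500 normalised counts, the 5 whose ratio was nearest to that of *Fos* were *Nr4a1* (log2 -1.49), *Vwf* (-1.59), *Egr1* (-1.26), *Plk2* (-1.23) and *F2r* (-1.18). *Vwf*, which encodes von Willebrand factor, and *F2r*, which encodes a thrombin receptor, are known from the platelet lineage and are also expressed in HSCs. The list of 7 megakaryocyte markers had a median of -0.36 over 6 tested and no call, and the median was -0.62 at a mean of at least 10 CPM. In this list *Pf4* (log2 -0.65), *Itga2b* (-0.68) and *Gp1ba* (-0.62), picked after their values were seen, had counting intervals wholly below 0. The other tested markers were *Gp5* (-0.09), *Gp9* (0.17) and *Ppbp* (0.39), whose intervals included no difference. Thus 4 of the 6 ratios were below 0 and 2 above. Likeness here rests on 1 difference between 2 libraries.

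**Figure D5:**
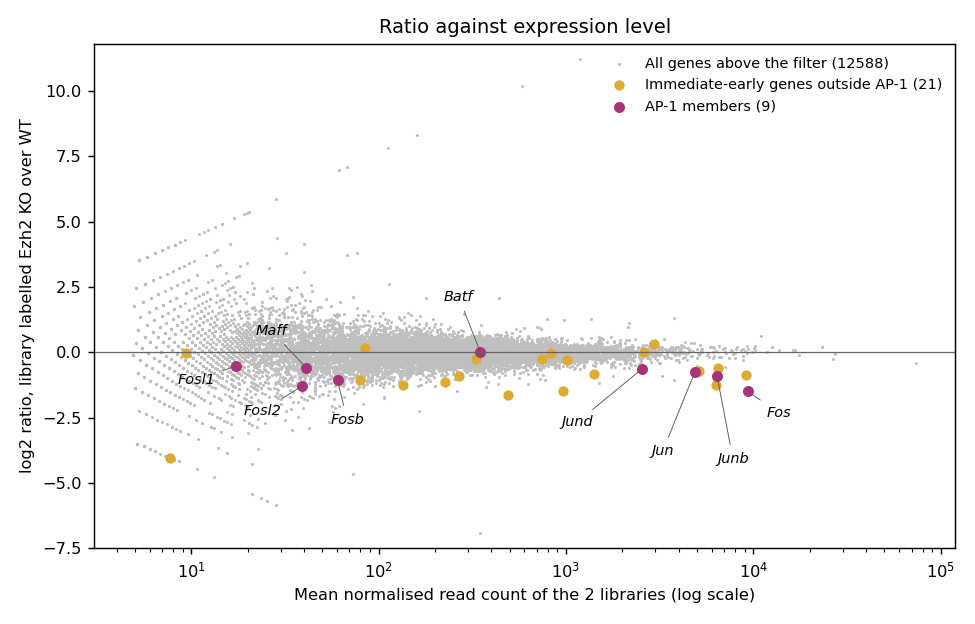
Log2 ratio of the library labelled Ezh2 KO over WT against the mean normalised read count (log scale) for 12588 genes above the filter (grey), with the 9 AP-1 members (red) and 21 immediate-early genes outside AP-1 (gold). *Fos*, *Jun*, *Junb* and *Jund* lie at the lower edge of the narrow cloud at high expression, where the robust SD is 0.19, and *Batf* lies at its centre.

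Other measured features differed between the same libraries. Summed over the lists, markers of eosinophils rose from 2.08 CPM in WT to 774.8 CPM under the Ezh2 KO label. Of these, 6 of 6 tested genes were called higher, and 5 of 8 were at 0 in WT. In all these lists, a tested gene at 0 in WT passed the filter only through the other library and could only be called higher. Among tested eosinophil genes only *Il5ra* (2 and 8 counts) was above 0 in WT. *Ccr3* and *Siglecf*, with 5 and 4 counts each, did not pass the filter. Neutrophil markers summed to 2082.6 and 3911.0 CPM (6 of 12 called higher, none at 0), erythroid markers to 53.8 and 194.4 CPM (5 of 5 tested called higher, the 5 globin genes at 0 in both) and B lymphoid markers to 48.4 and 101.3 CPM (5 of 6 tested called higher, 6 of 10 at 0 in WT). Of the B lymphoid genes called higher, *Vpreb3*, *Igll1* and *Dntt* were at 0 in WT. Monocyte markers summed to 517.6 and 623.2 CPM, with 1 of 6 tested called in each direction and 3 of 9 at 0 in WT. T and NK markers summed to 41.0 and 40.4 CPM, with 2 of 4 tested called higher and 1 lower, and 5 of 8 at 0 in WT, including both genes called higher. Over all genes tested, 4.09% were called higher and 3.27% lower. At a mean of at least 10 CPM the genes called higher numbered 3 for eosinophils, 5 for neutrophils, 2 for erythroid cells and 0 for the B lymphoid, monocyte and T and NK lists. Heat shock and handling genes gave 0 calls among 9 tested, with a median of -0.17, 8 ratios below 0 and 1 above. The most abundant of these, *Hsp90ab1* and *Hspa8*, had log2 ratios of -0.09 and -0.55. Their intervals lay wholly below 0, as did that of *Dnajb1* (-0.56, interval -0.69 to -0.43). The intervals of the other tested genes included no difference. The sort lists CD48, CD34 and Flt3 as negative. Transcripts of *Cd34* (957 and 829 counts) and *Flt3* (98 and 140 counts) were present in both libraries, while *Cd48* had 12 and 11 counts. The part of these features in the values of the AP-1 genes was not tested.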

How the data were processed

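For each library the authors deposited 1 file of raw, unnormalised read counts, listed by gene symbol. The submitters' processing notes name the build mm10 and the tools TopHat2 2.0.13, Bowtie2 2.1.0, StringTie, edgeR and bedtools without their roles. The counter, its annotation and its strand setting are not given in the sources used here. RNA had been amplified as cDNA by a low-input PCR kit, which can widen the error of genes with few counts. The 5 closing entries of each file name no gene, held 56.1% (WT) and 56.9% (library labelled Ezh2 KO) of all entries, and were left out.

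Scaling used the median-of-ratios size factors of DESeq2 1.42.0 in R 4.3.3 (1.17 and 0.858), and log2 ratios used a pseudocount of 1. No count model could estimate a spread from 1 library per group, and the main calls used no p-value. The only p-values came from an edgeR exact test with an assumed spread, run as an alternative. Intervals on ratios and shares are exact binomial (Clopper-Pearson), and those on levels exact Poisson. Genes were called as stated above. Positions, exon lengths and transcript sequences came from GENCODE M21 (GRCm38), in which all 10 members had 1 gene each, and promoters from RefSeq. Calculations were run with scipy 1.17.1, numpy 2.4.6, pandas 2.3.3 and matplotlib 3.10.9 in Python 3.11.15. The procedure was run on simulated counts with counting error only and 4-fold changes in well-counted genes. That run cannot show how calls fare with a spread between libraries, smaller differences or low counts.

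The members, lists and alternatives were chosen with earlier results of these data known. The genes named were all 10 members, *Ezh2*, up to 4 called and 2 uncalled genes of highest mean in each related list, and the 5 genes (mean of at least 500) nearest to *Fos* in ratio. Not every gene selected in this way is reported here. Other names were chosen after their values were seen, and cell type marker lists were reported as sums. Alternatives were other scalings (TMM in edgeR 4.0.16, total counts), pseudocounts (0.5 and 5), filters, fold thresholds (1.5 and 4), thinning, gene lengths, and an assumed coefficient of variation (CV) between libraries. With an assumed CV, a call required a 2-fold difference and a Benjamini-Hochberg adjusted p-value under 0.01 in the edgeR exact test. That rule differs from the one for the main calls.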

Additional observations from a re-analysis of the deposited data

How the results depend on the processing

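No paired analysis was possible because neither group held more than 1 library. The number of members called lower, 3, was unchanged with TMM or total-count scaling, a pseudocount of 0.5 or 5, thinning of the WT library to the other depth, and no expression filter. With a mean of at least 10 CPM it was 2, since *Fosl2* was then not tested, and the calls over all genes were 115 lower and 96 higher, against 411 and 515. It was 6 at a 1.5-fold threshold, where *Jun*, *Junb* and *Jund* were added, and 0 at a 4-fold threshold. Of all 12588 genes tested, 926 were called lower at 1.5-fold and 116 at 4-fold. The number of members called lower was also 0 when an edgeR exact test was given an assumed CV between libraries of 0.2 or 0.4. These values are assumed and not measured here, and with them 22 and 2 of all genes tested were called lower. The calls thus rest on counting error alone. No member was called higher under any of these settings. The log2 ratio of *Fos* ranged from -1.50 to -1.47 over the alternatives, that of *Jun* from -0.78 to -0.73, *Junb* from -0.91 to -0.88 and *Jund* from -0.64 to -0.60. That of *Batf* ranged from -0.02 to 0.05, and with the WT library thinned the 9 ratios were all below 0. The share of the Fos family in WT was 42.9% with the length of the longest transcript, against 43.5%. With that length the order of levels in the library labelled Ezh2 KO kept 4 of the 10 members in place. Depth limited *Atf3*, *Fosl1* and *Maff*, with at most 58 counts in a library.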
